A study of Mus musculus with 14 samples.

Results

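Sorting enriches a cell type, and the enrichment of a gene is its level in sorted cells over its level in the whole crypts the cells came from. The values below describe how that enrichment differed between colon and ileum for cells that carry ATOH1, in mouse RNA sequencing libraries. The members are the 10 of 14 libraries that hold sorted ATOH1-positive cells or WT crypts, and the measure is an interaction on the log2 scale, (colon GFP minus colon WT) minus (ileum GFP minus ileum WT). A positive interaction means that the ratio of sorted cells to crypts was higher in colon than in ileum, and a negative one that it was lower. Of 14972 genes tested over the 10 libraries, 155 were called, which is 1.04% of all genes tested.

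The colon GFP and ileum GFP groups (3 libraries each) were live GFP-positive cells sorted by flow cytometry from crypts of Atoh1 GFP/GFP mice, in which both Atoh1 alleles encode a functional ATOH1::GFP fusion protein. No age is stated for these mice. The colon WT and ileum WT groups (2 libraries each) were whole crypts of Atoh1 f/+; Vil CreERT2 mice aged 6 to 8 weeks, littermates of the knockouts, which carry 1 floxed Atoh1 allele and the tamoxifen-inducible Cre recombinase driven by the Villin promoter in intestinal epithelium. Sorted cells and crypts therefore differed in genotype and in handling as well as in cell type in both tissues, and what of that differs between the tissues cannot be told apart from a tissue difference of the secretory cells. Nothing states that the libraries came from separate animals, and p-values reflect only how far these libraries spread, which may be technical.

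ATOH1 is a basic helix-loop-helix transcription factor that a crypt cell needs to enter the secretory lineage, and Notch signalling represses its gene in the cells that become absorptive. The secretory lineage gives goblet cells and enteroendocrine cells in both tissues, Paneth cells in the ileum, and in the colon deep crypt secretory cells that lie between stem cells. Absorptive cells differ more by region. Ileal enterocytes carry a brush border of peptidases, disaccharidases and nutrient transporters, whereas colonocytes mainly take up water and salts.

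Levels are given as CPM, gene counts per library size, where the size is the sum of gene counts adjusted by the TMM method of edgeR among the 10 libraries, per 1e+06 counts. Gene totals were 7478418 to 12991891 counts in sorted cells and 8848660 to 10870416 in WT crypts. Mitochondrial ribosomal RNA took 30.02 to 44.88% of the counts in sorted cells and 0.15 to 0.22% in WT crypts, and TMM factors were 0.71 to 0.879 and 1.4 to 1.49. The tissue labels were checked on an ileal marker. Fabp6, the ileal bile acid-binding protein, stood at 27.4, 2.93 and 6.58 CPM in colon GFP and 20.7 and 7.02 CPM in colon WT, against 83.1, 64.2 and 76.5 CPM in ileum GFP and 2027 and 956 CPM in ileum WT.

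Several libraries stood apart from the others of their group. Colon GFP 1 was high in transcripts that were abundant in ileal libraries: Lyz1 was at 1307 CPM there and at 34.2 and 37.7 CPM in colon GFP 2 and 3, and Apoa1 at 26.3 CPM against 0.339 and 0.134 CPM. Colon WT 1 was above colon WT 2 in Fabp6 (20.7 and 7.02 CPM), Apoa1 (3.50 and 0.739 CPM) and Anpep (17.3 and 5.18 CPM). In Mme it was below (0.466 and 0.678 CPM). The source of these transcripts in colon libraries was not tested. In ileum GFP 1, 52.29% of uniquely placed reads lay outside genes, against 24.87 to 31.92% in the other sorted-cell libraries. Ileum WT 2 was high in tuft cell and some secretory transcripts, with Dclk1 at 75.4 CPM and 4.11 CPM in ileum WT 1, and Reg4 at 1854 CPM and 16.0 CPM. The immune cell list summed to 87.6 to 1040 CPM in ileum WT, where ileum WT 1 was the high library.

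The interaction was called higher for 108 genes (0.721% of those tested) and lower for 47 (0.314%) by the quasi-likelihood F-test of edgeR with Benjamini-Hochberg adjustment at 0.05. Without adjustment, 2047 genes had a p under 0.05. The counts depended on the analysis: DESeq2 called 258 genes higher and 200 lower, and a block on the numbers in the file names called 343 higher and 392 lower, so that the balance of directions turned with that block. Colon GFP 3 and ileum GFP 1 share their file-name number with no other library, so with that block they took no part in the comparison. How far their absence moved the counts was not tested. The median interaction was 2.61 over the genes called higher, −2.24 over those called lower and 0.052 over all genes tested. Levels in the ileum differed most: the median log2 ratio of sorted cells to crypts of these 108 genes was 0.345 in colon and −2.78 in ileum. Ileum WT was the group with the highest mean for 72 of them (66.7%), and for 26.8% of all genes tested. Colon GFP was highest for another 28 (25.9%), near its share of 23.2% among all genes tested. The 47 genes with a negative interaction had a median ratio of −0.42 in colon and 1.57 in ileum, and ileum GFP was the highest group for 24 of them (51.1%), against 27.6% of all genes tested.

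**Figure D1:**
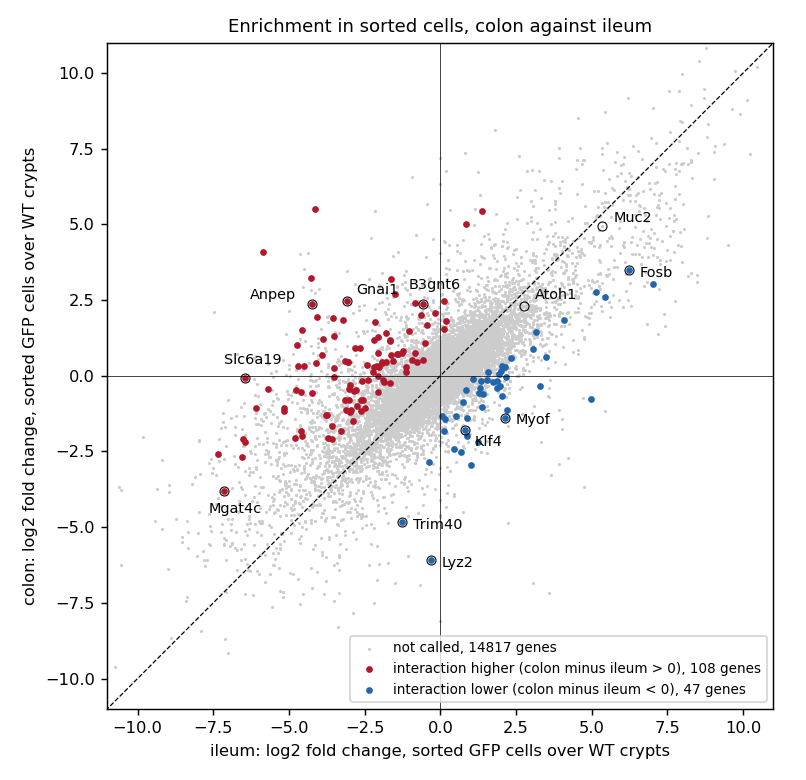
Log2 ratio of sorted GFP cells over WT crypts in colon (vertical) against ileum (horizontal) for 14972 genes, each a point, with the 108 genes called higher in the interaction in red and the 47 called lower in blue. The dashed line marks equal ratios in both tissues, called genes lie away from it on either side, and Muc2 and Atoh1 (open circles, not called) lie close to it.

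The 2 ratios behind each interaction share its libraries, so their calls only describe it. In colon, sorted cells were higher than crypts for 2992 genes (20.0%) and lower for 3038 (20.3%), 40.3% in either direction, and in ileum for 3374 (22.5%) and 3812 (25.5%), 48.0% in either direction. Of the 108 genes with a positive interaction, 25 were higher in sorted cells of colon and lower in those of ileum, 48 were lower in ileum with no call in colon, 25 were lower in both and 10 were higher in colon with no call in ileum. Of the 47 with a negative interaction, 9 were lower in sorted cells of colon and higher in those of ileum, 21 were higher in ileum with no call in colon, 9 were lower in colon with no call in ileum, 7 were higher in both and 1 was lower in both.

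Without colon GFP 1, 74 genes were called higher and 42 lower. The counts were 49 and 21 without colon GFP 2, 66 and 28 without colon GFP 3, 39 and 20 without colon WT 1, and 31 and 20 without colon WT 2. They were 163 and 130 without ileum GFP 1, 63 and 21 without ileum GFP 2, 52 and 20 without ileum GFP 3, 149 and 75 without ileum WT 1, and 116 and 43 without ileum WT 2. The 25 genes higher in colon GFP and lower in ileum GFP numbered 14, 13, 4, 8 and 15 without colon GFP 1, colon GFP 2, colon WT 1, colon WT 2 and ileum GFP 3. The 9 genes of the opposite pattern numbered 5, 2, 3 and 4 without colon GFP 2, colon WT 1, ileum GFP 2 and ileum GFP 3, and 25 and 19 without ileum GFP 1 and ileum WT 1. All 108 and all 47 kept their sign in each of 18 alternative analyses, and 21 and 11 of them kept their call in all 18.

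Genes of small intestinal absorptive cells had more called members with a positive interaction than any other of the 25 lists. The list holds brush border proteins and also genes of lipoprotein assembly and fat synthesis such as Mttp and Dgat1. Of its 37 tested genes, 12 were called higher (32.4%, against 0.721% of all genes tested) and 0 lower by edgeR, with a median interaction of 3.6. The list's median log2 ratio of sorted cells to crypts was −0.451 in colon and −4.32 in ileum. In sorted ileal cells 31 of the 37 were lower than in crypts (25.5% of all genes tested). Some members, such as Treh and Mme, were low in both colon groups. Where the colon ratio is small, a positive interaction mostly restates the lower level in sorted ileal cells. The share called is thus no separate result on colonic secretory cells. The list summed to 610 to 907 CPM in colon GFP, 639 to 935 CPM in colon WT, 1770 to 2290 CPM in ileum GFP and 12300 to 19000 CPM in ileum WT. The sorted ileal libraries thus held less of this RNA than ileal crypts, and in these bulk samples fewer cells of a type and less RNA per cell cannot be told apart. The number called was 10 without colon GFP 1 and 9 to 12 over the libraries left out in turn.

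Slc6a19 (ENSMUSG00000021565), the main sodium-coupled carrier of neutral amino acids in the brush border, stood at 1.94, 1.58 and 0.269 CPM in colon GFP, 2.02 and 0.863 CPM in colon WT, 4.11, 3.93 and 3.58 CPM in ileum GFP, and 379 and 294 CPM in ileum WT. Only the ileal crypts were high, and the colon groups overlapped. The interaction was 6.36 (SE 0.67, edgeR adjusted p = 0.00149).

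Anpep (ENSMUSG00000039062), aminopeptidase N, differed from Slc6a19 in that it was also called higher in sorted cells of colon (log2 ratio 2.37). Its levels were 86.3, 54.7 and 32.6 CPM in colon GFP, 17.3 and 5.18 CPM in colon WT, 108, 229 and 181 CPM in ileum GFP, and 4733 and 1878 CPM in ileum WT. No groups overlapped, and colon GFP 1, which was also high in Lyz1 and Apoa1, was the highest of the colon libraries. The interaction was 6.63 (SE 0.92, edgeR adjusted p = 0.0096) and ran from 5.82 to 7.74 over the 18 alternatives, with the call kept in each. Dpp4 (ENSMUSG00000035000), dipeptidyl peptidase 4, was picked after its values were seen because it had the smallest p of all genes. It had 85.7, 79.7 and 70.3 CPM in colon GFP, 39.2 and 43.6 CPM in colon WT, 72.7, 54.4 and 75.2 CPM in ileum GFP, and 479 and 371 CPM in ileum WT. Sorted cells of the 2 tissues overlapped, while crypts differed between tissues (log2 −3.36, colon over ileum), and the interaction was 3.58 (SE 0.29, edgeR adjusted p = 0.000355).

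Treh (ENSMUSG00000032098), the disaccharidase that splits trehalose, was a low-count member, with 11 counts in all in colon GFP and 4 in colon WT. It stood at 0.485, 0.451 and 0.269 CPM in colon GFP, 0.155 and 0.123 CPM in colon WT, 0.762, 0.873 and 0.511 CPM in ileum GFP, and 20.9 and 13.6 CPM in ileum WT. Its interaction was 6.06 (SE 0.74, edgeR adjusted p = 0.00351). Mme (ENSMUSG00000027820), the peptidase neprilysin, had 0.970, 2.37 and 0.672 CPM in colon GFP, 0.466 and 0.678 CPM in colon WT, 2.44, 4.47 and 2.68 CPM in ileum GFP, and 46.3 and 48.3 CPM in ileum WT. The colon groups of Mme overlapped and its interaction was 5.06 (SE 0.64, edgeR adjusted p = 0.0044). Both stayed below 5 CPM in every group but ileum WT.

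Cubn and Mttp were called with less support. Cubn (ENSMUSG00000026726), cubilin, the ileal receptor for vitamin B12 with intrinsic factor, had 6.89, 2.48 and 2.55 CPM in colon GFP, 1.55 and 0.678 CPM in colon WT, 13.1, 10.5 and 13.0 CPM in ileum GFP, and 208 and 78.2 CPM in ileum WT. Its interaction of 5.45 (SE 0.81, edgeR adjusted p = 0.0151) lost the call without colon WT 1, colon WT 2 or ileum GFP 2 (highest adjusted p = 0.0989). Mttp (ENSMUSG00000028158), which loads lipid onto apolipoprotein B, stood at 481 and 377 CPM in ileum WT and at 17.8 CPM or less in each of the other libraries. Its interaction was 4.09 (SE 0.78, edgeR adjusted p = 0.0421), and the call was lost under the replicate block and without any 1 of the 10 libraries other than colon WT 1 and ileum GFP 2 (highest adjusted p = 0.122). Apoa1, the apolipoprotein of high-density lipoprotein, had a larger interaction of 7.16 but was not called (SE 2.38, edgeR adjusted p = 0.265), and without colon GFP 1 its interaction was 2.00.

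**Figure D2:**
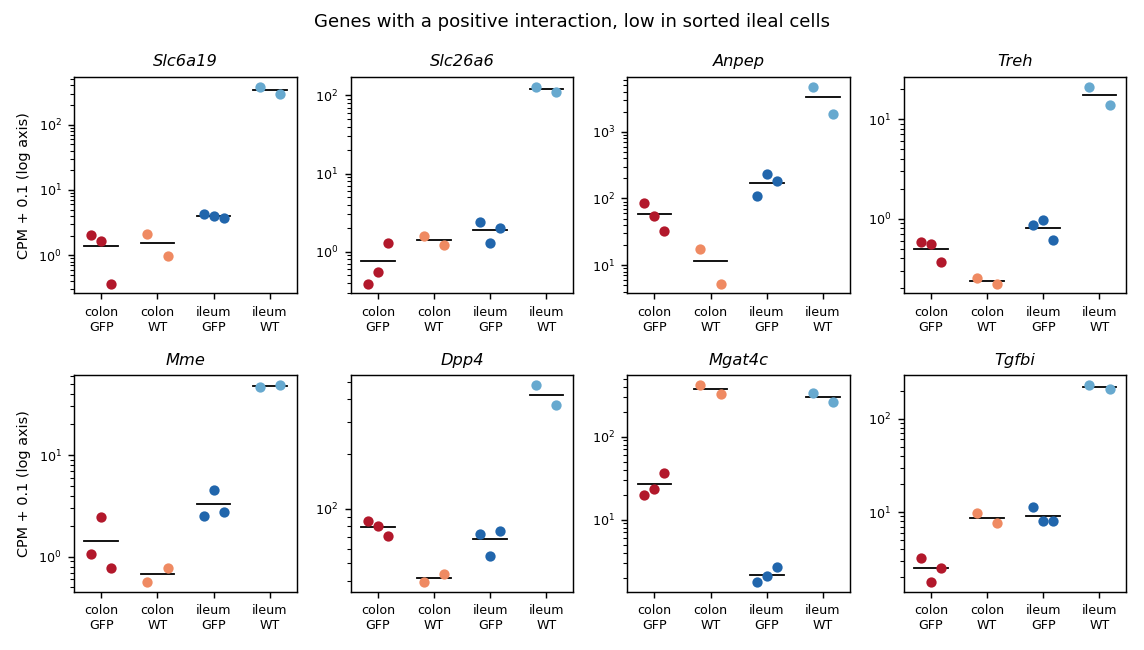
CPM + 0.1 on a log axis for 8 genes with a positive interaction, each point a library and each bar a group mean. The ileum WT points lie far above the ileum GFP points in every panel, for Slc6a19 at 379 and 294 CPM against 3.58 to 4.11 CPM, and in Mgat4c the colon WT points are as high as those of ileum WT.

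Promoter windows of 2 of these genes are shown to give their sequence around the start of transcription, 250 bases before it and 50 after, 5′ to 3′ on the gene's strand, from RefSeq on build GRCm38.p6. Both are examples that hold a match. They do not stand for the called genes at large, whose shares are given below the sequences. Capitals mark a match to CAAAGTCCA or its reverse complement, a form of the site of HNF4, an enterocyte transcription factor, in Treh (chr9:44672983-44673282, + strand), and to AGATAA on either strand, a form of the GATA site, in Dpp4 (chr2:62412182-62412481, − strand).
Treh: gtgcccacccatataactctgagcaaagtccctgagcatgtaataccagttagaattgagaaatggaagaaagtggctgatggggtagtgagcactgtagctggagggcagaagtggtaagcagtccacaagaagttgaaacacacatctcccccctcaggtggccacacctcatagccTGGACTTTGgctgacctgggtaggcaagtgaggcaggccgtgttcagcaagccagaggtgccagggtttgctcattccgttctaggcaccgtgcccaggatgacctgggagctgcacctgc
Dpp4: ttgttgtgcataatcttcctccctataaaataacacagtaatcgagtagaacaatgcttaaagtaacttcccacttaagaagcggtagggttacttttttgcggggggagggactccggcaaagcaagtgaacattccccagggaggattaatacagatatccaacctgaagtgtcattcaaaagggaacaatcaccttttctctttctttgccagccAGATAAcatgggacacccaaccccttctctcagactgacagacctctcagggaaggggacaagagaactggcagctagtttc
Of the 113 windows that matched 81 of the 108 genes called higher, 1.77% (2 windows) held the HNF4 form and 10.6% (12 windows) the GATA form. The shares were 0.501% and 6.74% of the 13365 windows of genes tested and 0.475% and 11.2% of all 32851 windows in the table. In the 77 windows of genes called lower they were 1.3% and 3.9%. Among genes called higher, the share with the GATA form thus lay above that of genes tested and below that of all windows. GTTAAT, a half-site of HNF1, was also searched for. It was in 5.31% of windows of genes called higher, 7.79% of genes called lower, 4.77% of genes tested and 7.1% of all windows. These are matches of letters and say nothing of binding.

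Genes outside the small intestinal absorptive list that were low in sorted ileal cells had varied roles. Slc26a6 (ENSMUSG00000023259), an anion exchanger of the apical membrane, had 0.291, 0.451 and 1.21 CPM in colon GFP, 1.48 and 1.11 CPM in colon WT, 2.29, 1.20 and 1.92 CPM in ileum GFP, and 128 and 111 CPM in ileum WT, with an interaction of 5.02 (SE 0.65, edgeR adjusted p = 0.00472). Tgfbi (ENSMUSG00000035493), a secreted matrix protein induced by TGF-beta, was lower in sorted cells of both tissues, with 3.11, 1.69 and 2.42 CPM in colon GFP, 9.64 and 7.52 CPM in colon WT, 11.3, 7.97 and 7.92 CPM in ileum GFP, and 228 and 207 CPM in ileum WT. The interaction of Tgfbi was 2.78 (SE 0.36, edgeR adjusted p = 0.00472). In both genes the ileal crypts alone were high.

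Mgat4c (ENSMUSG00000019888), of the family of N-acetylglucosaminyltransferases that branch N-glycans, did not follow that order, since the crypts of both tissues were alike. It had 19.6, 23.4 and 36.7 CPM in colon GFP, 414 and 326 CPM in colon WT, 1.68, 1.96 and 2.56 CPM in ileum GFP, and 336 and 261 CPM in ileum WT. The crypts overlapped and did not pass the test (log2 0.31, colon over ileum, SE 0.28), whereas sorted cells were higher in colon by 3.66 on the log2 scale (SE 0.30, edgeR adjusted p = 8.25e-06). Its interaction was 3.35 (SE 0.41, edgeR adjusted p = 0.00351). Duox2 (ENSMUSG00000068452), the epithelial oxidase that makes hydrogen peroxide, had 176, 181 and 153 CPM in colon GFP, 329 and 268 CPM in colon WT, 106, 101 and 123 CPM in ileum GFP, and 699 and 1067 CPM in ileum WT. Its interaction was 2.19 (SE 0.32, edgeR adjusted p = 0.00751), and the call was lost without colon WT 2 (adjusted p = 0.063).

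Some genes with a positive interaction were highest in the sorted colonic cells, a share near that of all genes tested. Tenm4 (ENSMUSG00000048078), a teneurin adhesion protein of the cell surface, had 16.6, 18.5 and 16.7 CPM in colon GFP, 1.48 and 2.22 CPM in colon WT, 0.305, 0.327 and 0.639 CPM in ileum GFP, and 0.959 and 1.71 CPM in ileum WT. Sorted cells lay above crypts in colon and below them in ileum, with an interaction of 4.82 (SE 0.57, edgeR adjusted p = 0.003). Gnai1 (ENSMUSG00000057614), an inhibitory G protein alpha subunit, had 42.5, 46.3 and 36.5 CPM in colon GFP, 3.58 and 11.4 CPM in colon WT, 0.152, 0.436 and 0 CPM in ileum GFP, and 1.03 and 2.75 CPM in ileum WT. Ileum GFP held 5 counts of Gnai1 over its 3 libraries. The interaction was 5.55 (SE 0.99, edgeR adjusted p = 0.0263), and the call was lost with limma-voom and without any 1 of the 6 sorted-cell libraries or ileum WT 2 (highest adjusted p = 0.0981).

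Plek (ENSMUSG00000020120), pleckstrin, best known as a protein kinase C substrate of platelets and leukocytes, had 15.6, 12.4 and 8.06 CPM in colon GFP, 4.43 and 5.36 CPM in colon WT, 0, 0.436 and 0.767 CPM in ileum GFP, and 5.68 and 4.24 CPM in ileum WT. Its interaction was 4.83 (SE 0.74, edgeR adjusted p = 0.00906), and the call was lost without colon WT 1 (adjusted p = 0.0503). Of the 35 genes of the immune cell list, 23 were lower in sorted colonic cells (20.3% of all genes tested) and 0 higher (20.0%). The list summed to 18.7 to 28.5 CPM in colon GFP and 245 to 401 CPM in colon WT. In ileum it summed to 66.4 to 74.9 CPM in GFP and 87.6 to 1040 CPM in WT. Which cells the Plek RNA came from was not tested. Ptprc, the pan-leukocyte phosphatase CD45, was at 0.485, 1.24 and 0.940 CPM in colon GFP and at 28.6 and 19.0 CPM in colon WT.

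Of 32 tested mucin glycosylation genes, 3 were called higher (Fut2, B3gnt6 and St3gal4; 9.38%, against 0.721% of all genes tested) and 0 lower by edgeR. The list's median was −0.254, and 19 of the 32 had a negative interaction. Fut2 (ENSMUSG00000055978), which adds the fucose of secreted blood-group antigens, had 434, 377 and 365 CPM in colon GFP, 280 and 296 CPM in colon WT, 6.25, 8.18 and 9.33 CPM in ileum GFP, and 53.8 and 78.6 CPM in ileum WT. The ratio of sorted cells to crypts did not pass the test in colon (log2 ratio 0.45, SE 0.21, edgeR adjusted p = 0.116) and sorted cells were lower in ileum, with an interaction of 3.50 (SE 0.32, edgeR adjusted p = 0.000355). B3gnt6 (ENSMUSG00000074004), the core 3 synthase of mucin O-glycans, had 127, 122 and 106 CPM in colon GFP, 17.95 and 27.5 CPM in colon WT, 0.914, 2.40 and 2.30 CPM in ileum GFP, and 3.29 and 2.45 CPM in ileum WT.

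B3gnt6 thus differed between sorted cells and crypts in colon (log2 ratio 2.37, SE 0.27) and did not pass that test in ileum (log2 ratio −0.58, SE 0.35), and the difference of these ratios was 2.95 (SE 0.43, edgeR adjusted p = 0.00751). St3gal4 (ENSMUSG00000032038), a sialyltransferase, was lower in sorted cells of both tissues, with 51.3, 46.5 and 45.1 CPM in colon GFP, 168 and 228 CPM in colon WT, 56.1, 80.9 and 77.8 CPM in ileum GFP, and 943 and 948 CPM in ileum WT. Its interaction was 1.67 (SE 0.31, edgeR adjusted p = 0.0234), and the call was lost without colon GFP 1, colon GFP 2, colon WT 1, colon WT 2 or ileum GFP 3 (highest adjusted p = 0.167). Of 16 claudins and junction genes 6.25% were called, against 1.04% of all genes tested. Cldn2 (ENSMUSG00000047230), a claudin that forms cation pores, had 822, 835 and 581 CPM in colon GFP, 217 and 247 CPM in colon WT, 214, 122 and 163 CPM in ileum GFP, and 266 and 190 CPM in ileum WT. It was the 1 called gene of 16 claudins and junction genes (2.14, SE 0.39, edgeR adjusted p = 0.022), and the call was lost without colon GFP 1, colon GFP 2, colon WT 1, colon WT 2, ileum GFP 2 or ileum GFP 3 (highest adjusted p = 0.117).

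The promoter window of Gnai1 (RefSeq, GRCm38.p6, chr5:18360364-18360663, − strand) is shown as an example and was chosen because it held CAGCTG. This E-box form, which basic helix-loop-helix factors such as ATOH1 can bind, reads the same on both strands. Which other genes highest in colon GFP held it is not reported here, and B3gnt6 and Fut2 had no window. Capitals mark the match.
Gnai1: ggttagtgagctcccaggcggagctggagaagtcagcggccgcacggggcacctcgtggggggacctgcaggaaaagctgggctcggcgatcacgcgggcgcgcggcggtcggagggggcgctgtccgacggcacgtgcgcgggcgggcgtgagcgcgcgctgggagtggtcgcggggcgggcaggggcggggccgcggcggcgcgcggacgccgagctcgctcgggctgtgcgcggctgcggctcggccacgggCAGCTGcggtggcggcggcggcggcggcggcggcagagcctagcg
CAGCTG was in 21.2% of the 113 windows of genes called higher and in 13% of the 77 windows that matched 40 of the 47 genes called lower, against 15.5% of the windows of genes tested and 16.3% of all windows.

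**Figure D3:**
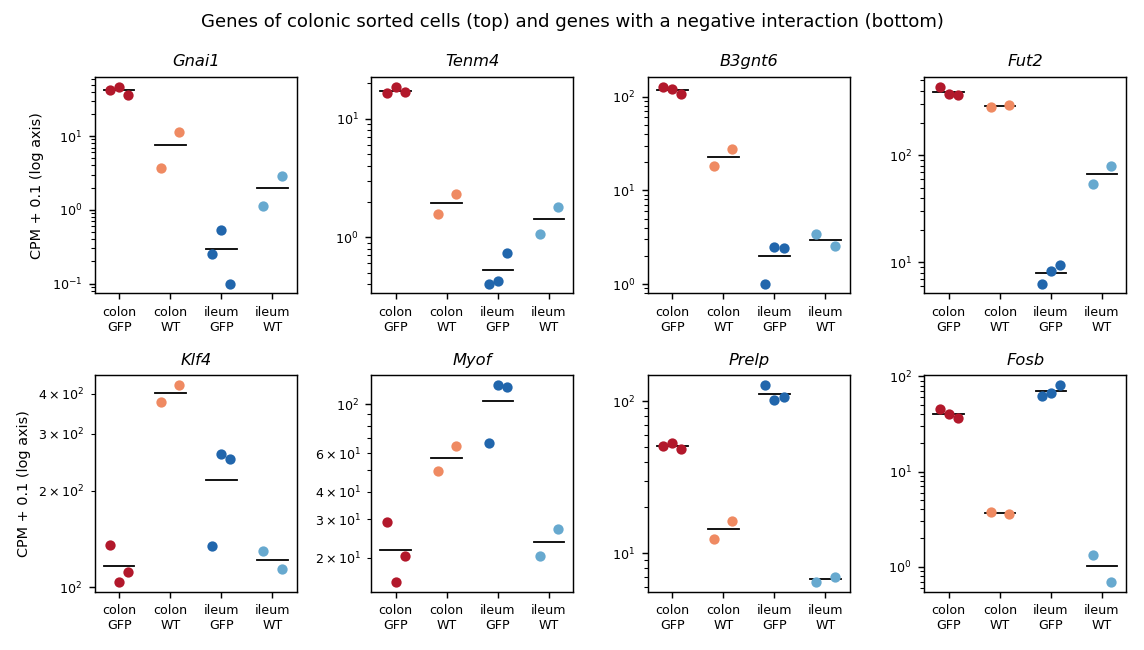
CPM + 0.1 on a log axis, each point a library and each bar a group mean, for 4 genes highest in sorted colonic cells (top row) and 4 with a negative interaction (bottom row). Klf4 and Myof lie above their crypts in sorted ileal cells and below them in sorted colonic cells, while Prelp and Fosb lie above crypts in both tissues with a wider gap in ileum.

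Among negative interactions, 9 genes had opposite calls in the tissues, lower than crypts in sorted colonic cells and higher in sorted ileal cells. Klf4 (ENSMUSG00000003032) is a zinc-finger factor of goblet cell maturation that colonocytes also express. It was the 1 called member of 21 secretory transcription factors (4.76%, against 1.04% of all genes tested). It had 135, 104 and 111 CPM in colon GFP, 378 and 425 CPM in colon WT, 134, 260.5 and 250.0 CPM in ileum GFP, and 129 and 114 CPM in ileum WT. Ileum GFP 1 lay close to the ileal crypts, and the interaction was −2.61 (SE 0.38, edgeR adjusted p = 0.00751) and between −2.86 and −2.44 in the 18 alternatives. Myof (ENSMUSG00000048612), myoferlin, a ferlin of membrane repair and vesicle traffic, had 28.9, 15.5 and 20.3 CPM in colon GFP, 49.4 and 64.6 CPM in colon WT, 66.9, 122 and 120.1 CPM in ileum GFP, and 20.3 and 26.9 CPM in ileum WT. Its groups did not overlap within a tissue, and the interaction was −3.53 (SE 0.44, edgeR adjusted p = 0.00429).

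Slc17a4 (ENSMUSG00000021336), an organic anion transporter of the intestinal apical membrane, had 24.2, 18.4 and 18.8 CPM in colon GFP, 52.0 and 31.9 CPM in colon WT, 53.9, 60.7 and 60.0 CPM in ileum GFP, and 25.5 and 19.6 CPM in ileum WT, with an interaction of −2.40 (SE 0.33, edgeR adjusted p = 0.00605). Mfsd7a (ENSMUSG00000029490), a member of the major facilitator superfamily, had 1.84, 0.790 and 1.34 CPM in colon GFP, 10.96 and 10.04 CPM in colon WT, 9.14, 16.6 and 16.4 CPM in ileum GFP, and 8.90 and 5.13 CPM in ileum WT. In Mfsd7a the sorted colonic cells alone were low, and the interaction was −3.96 (SE 0.54, edgeR adjusted p = 0.00605). Both calls were kept in all 18 alternatives.

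In 7 genes with a negative interaction sorted cells were higher than crypts in both tissues. Prelp (ENSMUSG00000041577), a leucine-rich repeat proteoglycan of connective tissue matrix, had 50.9, 52.6 and 48.6 CPM in colon GFP, 12.3 and 16.1 CPM in colon WT, 127, 102 and 107 CPM in ileum GFP, and 6.37 and 6.91 CPM in ileum WT. Its interaction was −2.24 (SE 0.26, edgeR adjusted p = 0.00252), from log2 ratios of 1.83 in colon and 4.07 in ileum. The stroma list was lower in sorted cells, summing to 34.2 to 44 CPM in colon GFP and 233 to 283 CPM in colon WT. In ileum it summed to 23.8 to 29.4 CPM in GFP and 161 to 193 CPM in WT. Which cells the Prelp RNA came from was not tested. Slc25a35 (ENSMUSG00000018740), of the mitochondrial carrier family, had 112, 108 and 112 CPM in colon GFP, 38.4 and 43.8 CPM in colon WT, 188, 231 and 205 CPM in ileum GFP, and 23.8 and 22.4 CPM in ileum WT, with an interaction of −1.74 (SE 0.23, edgeR adjusted p = 0.00505).

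Fosb (ENSMUSG00000003545), a subunit of AP-1 that cells induce within minutes of a stimulus, had 45.7, 39.7 and 36.3 CPM in colon GFP, 3.65 and 3.51 CPM in colon WT, 61.6, 67.2 and 80.4 CPM in ileum GFP, and 1.23 and 0.595 CPM in ileum WT. Its interaction was −2.72 (SE 0.37, edgeR adjusted p = 0.00605). Early response genes, which also rise when tissue is dissociated, were tested as a list of 26: 2 were called lower in the interaction (Fosb and Klf4; 7.69%, against 0.314% of all genes tested), 0 were called higher, and the median was −0.7. The list summed to 1260 to 1530 CPM in colon GFP, 1310 to 1340 CPM in colon WT, 1350 to 2530 CPM in ileum GFP and 754 to 910 CPM in ileum WT, and the part of handling in these values was not tested. Egr1, an early response zinc-finger factor, had an interaction of −2.13 that was not called (SE 0.51, edgeR adjusted p = 0.0788) but was called without ileum GFP 1 (−2.35, adjusted p = 0.0454).

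Srgap1 (ENSMUSG00000020121), a GTPase-activating protein of the Slit-Robo pathway, had 50.8, 46.3 and 36.5 CPM in colon GFP, 20.4 and 27.9 CPM in colon WT, 45.3, 68.6 and 57.2 CPM in ileum GFP, and 6.85 and 6.76 CPM in ileum WT. Its interaction of −2.18 (SE 0.32, edgeR adjusted p = 0.00761) lost the call without colon WT 2 (adjusted p = 0.0532). Trim40 (ENSMUSG00000073399), an E3 ubiquitin ligase of the gut epithelium, was the 1 called gene that was lower in sorted cells of both tissues with a deeper fall in colon. It had 2.62, 2.03 and 1.75 CPM in colon GFP, 77.3 and 46.2 CPM in colon WT, 11.3, 19.0 and 13.3 CPM in ileum GFP, and 47.5 and 22.7 CPM in ileum WT, with an interaction of −3.56 (SE 0.52, edgeR adjusted p = 0.00751).

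Lyz2 (ENSMUSG00000069516), lysozyme of myeloid cells, had 1.16, 0.339 and 0.134 CPM in colon GFP, 28.9 and 51.8 CPM in colon WT, 8.38, 20.4 and 10.7 CPM in ileum GFP, and 26.2 and 6.99 CPM in ileum WT. Its interaction was −5.74 (SE 1.04, edgeR adjusted p = 0.0398). The call was lost under the replicate block, with the block of file-name numbers, with limma-voom, and without colon GFP 2, colon GFP 3, colon WT 1, colon WT 2, ileum GFP 2 or ileum GFP 3 (highest adjusted p = 0.227). Reads of Lyz2 can be shared with its near-identical copy Lyz1, the Paneth cell lysozyme, which stood at 29343, 50851 and 37721 CPM in ileum GFP. How reads were split between the copies was not tested, and Lyz2 is uncertain to that extent. Lyz2 was also the 1 called member of the 35 immune cell genes (2.86%, against 1.04% of all genes tested), whose sums are given above beside Plek.

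Atoh1 and most goblet genes were higher in sorted cells than in crypts of both tissues and were not called in the interaction. Atoh1 (ENSMUSG00000073043) had 269, 209 and 237 CPM in colon GFP, 56.2 and 40.3 CPM in colon WT, 175, 288 and 265 CPM in ileum GFP, and 36.8 and 35.4 CPM in ileum WT. Sorted cells lay above crypts in both tissues, and the interaction was −0.44 (SE 0.33, edgeR adjusted p = 0.594). Muc2, the gel-forming goblet mucin, had 31355, 30698 and 27707 CPM in colon GFP, 513 and 1414 CPM in colon WT, 7368, 19636 and 18176 CPM in ileum GFP, and 254 and 484 CPM in ileum WT. Its interaction was −0.39 (SE 0.72, edgeR adjusted p = 0.85), and it was 0.52 without colon WT 2.

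Of 22 goblet genes, 16 were higher (20.0% of all genes tested) and 0 lower (20.3%) in sorted cells of colon. In sorted cells of ileum 19 were higher (22.5%) and 1 lower (25.5%). In the interaction 0 of them were called by edgeR, 18 had a negative interaction, and the median was −1.17. Zg16, a lectin that binds bacteria in mucus, stood at −2.69 (SE 0.83, edgeR adjusted p = 0.17), with 5879, 3585 and 8329 CPM in colon GFP, 1272 and 1189 CPM in colon WT, 9626, 32874 and 25829 CPM in ileum GFP, and 1119 and 341 CPM in ileum WT. Ileum GFP 1 was the lowest of its group for Muc2 and Zg16, and without it the interaction of Zg16 was −3.07 (edgeR adjusted p = 0.0631). Agr2, a disulfide isomerase needed to make mucin, had an interaction of −0.52 (SE 0.55), and Clca1, a secreted metalloprotease of mucus, −1.71 (SE 0.92).

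Of the 21 secretory transcription factors, 12 were higher (20.0% of all genes tested) and 4 lower (20.3%) in sorted cells of colon. In sorted cells of ileum 15 were higher (22.5%) and 3 lower (25.5%). Elf3, an epithelial ETS factor, and the endocrine factors Insm1 and Neurod1 were lower in both tissues. In the interaction 17 of the 21 were negative and 1 was called (Klf4; 4.76%, against 1.04% of all genes tested). Spdef, which drives goblet and Paneth maturation, stood at −0.09 (SE 0.55) and Gfi1, a repressor of the endocrine fate, at −0.99 (SE 0.53). Foxa2, a forkhead factor, stood at −1.57 (SE 0.44, edgeR adjusted p = 0.126) and was called without ileum GFP 1 (−1.83, adjusted p = 0.0238). For the corepressors of the MTG family, Cbfa2t3 had an interaction of −0.95 (SE 0.32, edgeR adjusted p = 0.212). Runx1t1 had 1.46, 1.35 and 1.07 CPM in colon GFP, 0.0777 and 0.246 CPM in colon WT, 11.4, 22.7 and 15.8 CPM in ileum GFP, and 0.548 and 0.297 CPM in ileum WT. Sorted ileal cells held more Runx1t1 than sorted colonic cells (log2 −3.67, colon over ileum, SE 0.38, edgeR adjusted p = 6.05e-05), while the interaction of −2.40 was not called (SE 0.89, edgeR adjusted p = 0.262).

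Of 21 Notch pathway genes 0 were called by edgeR and the median was −0.162. Dll1, a Notch ligand that secretory precursors present to their neighbours, had 52.6, 19.2 and 18.8 CPM in colon GFP, 12.1 and 13.2 CPM in colon WT, 70.1, 171 and 111 CPM in ileum GFP, and 22.1 and 17.8 CPM in ileum WT. Its interaction was −1.30 (SE 0.68, edgeR adjusted p = 0.442).

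For Paneth genes the interaction rested on 1 library. Of 21 tested Paneth genes 0 were called by edgeR; the median was 2.35, and −0.423 without colon GFP 1. Lyz1 had 1307, 34.2 and 37.7 CPM in colon GFP, 14.8 and 4.13 CPM in colon WT, 29343, 50851 and 37721 CPM in ileum GFP, and 5005 and 4443 CPM in ileum WT. Its interaction was 2.55 (SE 2.07, edgeR adjusted p = 0.631), and −1.12 without colon GFP 1. Defa24, an alpha-defensin whose reads can be shared with near-identical defensins, went the same way (3.72, and −1.17 without that library), as did Itln1, an intelectin (2.07 and −0.97).

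Reg4, a lectin that marks deep crypt secretory cells of the colon, had 3162, 2550 and 1941 CPM in colon GFP, 457 and 113 CPM in colon WT, 447, 490 and 594 CPM in ileum GFP, and 16.0 and 1854 CPM in ileum WT. The ileal crypts lay on both sides of the sorted ileal cells. Its interaction was 4.04 (SE 2.05, edgeR adjusted p = 0.442), 5.03 and called without ileum WT 1 (adjusted p = 0.00318), and −1.83 without ileum WT 2. Of 11 deep crypt secretory genes 0 were called by edgeR. Their median was 0.733, which became −0.443 without ileum WT 2 and was 0.565 to 1.51 without each of the other libraries. Mptx1, a mucosal pentraxin, stood at 2.25 (SE 1.43), and −0.44 without ileum WT 2.

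Tuft cells are chemosensory cells of the epithelium. Of 15 tuft genes 14 had a positive interaction and 0 were called by edgeR, with a median of 1.95, and −0.468 without ileum WT 2. In sorted ileal cells 11 of the 15 were lower than in crypts (25.5% of all genes tested), and in sorted colonic cells 0 were (20.3%). The list summed to 24.4 to 51.6 CPM in colon GFP, 45.5 to 82 CPM in colon WT, 19.9 to 29.4 CPM in ileum GFP and 39 to 453 CPM in ileum WT. Dclk1, a kinase that marks tuft cells, had 2.62, 8.01 and 8.73 CPM in colon GFP, 5.91 and 13.4 CPM in colon WT, 3.35, 4.47 and 2.04 CPM in ileum GFP, and 4.11 and 75.4 CPM in ileum WT. Its interaction was 2.98 (SE 1.57, edgeR adjusted p = 0.453), 3.90 without ileum WT 1 (adjusted p = 0.0347) and −0.28 without ileum WT 2.

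Trpm5, the cation channel of chemosensory cells, had the same dependence (2.70, adjusted p = 0.0107 with 3.58 without ileum WT 1, and 0.055 without ileum WT 2). Lrmp, a membrane protein of the endoplasmic reticulum, rested less on those libraries. It had 11.9, 15.3 and 18.8 CPM in colon GFP, 15.1 and 16.6 CPM in colon WT, 1.07, 2.51 and 2.81 CPM in ileum GFP, and 9.999 and 45.7 CPM in ileum WT. The interaction of Lrmp was 3.62 (SE 0.80, edgeR adjusted p = 0.0731), 4.34 without ileum WT 1 (adjusted p = 0.000421) and 2.15 without ileum WT 2 (adjusted p = 0.0696).

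**Figure D4:**
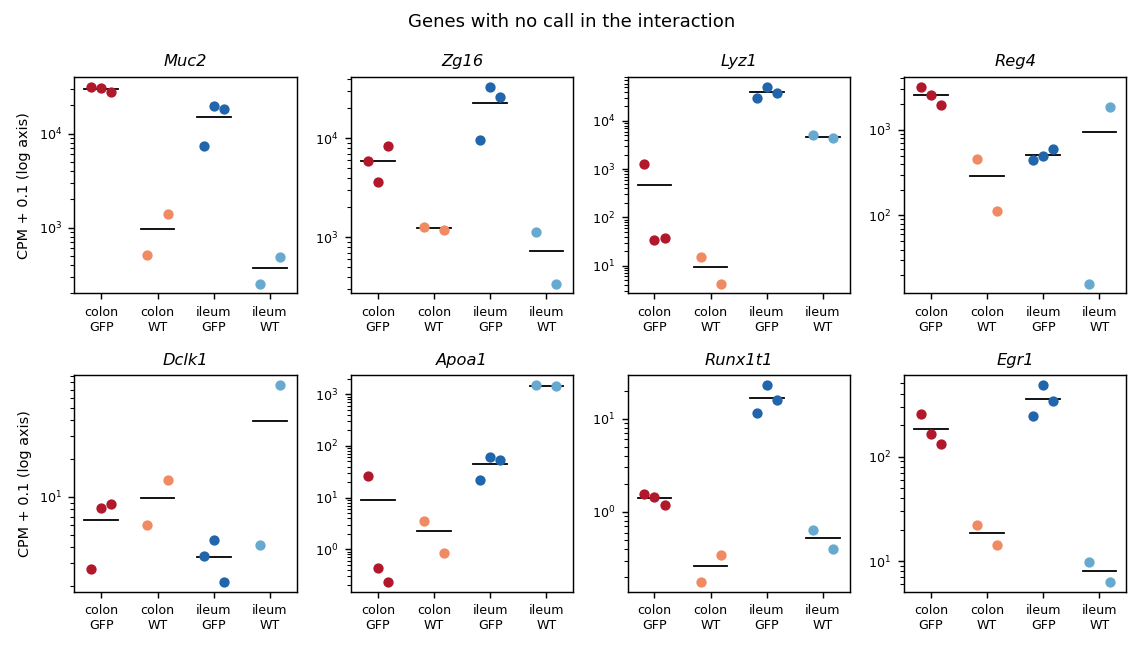
CPM + 0.1 on a log axis, each point a library and each bar a group mean, for 8 genes with no call in the interaction. Single libraries lie far from the rest of their group in Lyz1 and Apoa1 (colon GFP 1) and in Reg4 and Dclk1 (ileum WT 2 against ileum WT 1), while Muc2 and Egr1 lie above crypts in sorted cells of both tissues.

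The other lists had few called members or 0. Of 28 enteroendocrine genes, 3 were higher (20.0% of all genes tested) and 13 lower (20.3%) in sorted cells of colon. In sorted cells of ileum 2 were higher (22.5%) and 16 lower (25.5%). In the interaction 0 were called by edgeR and the median was 0.811. Gcg, the preproglucagon gene of L cells, had 9.996, 18.7 and 20.8 CPM in colon GFP, 43.2 and 37.0 CPM in colon WT, 8.69, 1.85 and 4.60 CPM in ileum GFP, and 41.2 and 38.1 CPM in ileum WT, and was lower in sorted cells of both tissues with an interaction of 1.73 that was not called (SE 0.64, edgeR adjusted p = 0.271). Of 30 cell cycle genes 28 had a positive interaction and 0 were called by edgeR. Their median was 0.64, against 0.052 over all genes tested, and the list summed to 1590 to 1770 CPM in colon GFP, 1330 to 1380 CPM in colon WT, 1900 to 2190 CPM in ileum GFP and 2230 to 2240 CPM in ileum WT. Top2a, topoisomerase of dividing cells, had an interaction of 0.65 (SE 0.25, edgeR adjusted p = 0.275).

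Of 35 colonocyte genes 0 were called by edgeR, with a median of −0.263. Sorted cells were lower than crypts for 25 of them in colon (20.3% of all genes tested) and for 19 in ileum (25.5%). Lypd8, a colonic protein that binds flagella, had 2538, 2618 and 5786 CPM in colon GFP, 5946 and 4110 CPM in colon WT, 3381, 7775 and 6398 CPM in ileum GFP, and 1892 and 847 CPM in ileum WT. Its interaction of −2.56 was not called (SE 0.70, edgeR adjusted p = 0.122). Of 37 interferon and antigen presentation genes 0 were called by edgeR and the median was −0.847. Cd74, the invariant chain of MHC class II, had 10.4, 2.60 and 114 CPM in colon GFP, 1349 and 1122 CPM in colon WT, 483, 245 and 165 CPM in ileum GFP, and 1538 and 452 CPM in ileum WT, with an interaction of −3.13 (SE 1.95, edgeR adjusted p = 0.533).

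Regional lists gave a median of 1.05 for 22 small intestine genes and −0.584 for 20 colon genes, with 0 called by edgeR in each. Ccl25, a chemokine of the small intestinal epithelium, had 10.2, 5.30 and 9.13 CPM in colon GFP, 2.10 and 1.91 CPM in colon WT, 140, 59.4 and 53.1 CPM in ileum GFP, and 172 and 146 CPM in ileum WT. Its interaction was 2.96 (SE 0.62, edgeR adjusted p = 0.0564) and was called without ileum GFP 1 (3.52, adjusted p = 0.00173). Olfm4, a stem cell gene of the small intestine, had an interaction of 2.93 (SE 1.89) that was not called, and the 20 stem cell genes had a median of 0.147.

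The 50 genes of the endoplasmic reticulum and secretion had a median interaction of −0.00782 and 0 calls by edgeR. In each tissue 24 of them were higher in sorted cells (20.0% of all genes tested in colon and 22.5% in ileum). The remaining lists were goblet ion channels and receptors (25 genes, median −0.0047), Wnt and niche signals (20, 0.797), mitochondrial-encoded mRNA (7, 0.442) and stroma (22, 0.61), with 0 called in each. In bile acid, lipid and cholesterol genes 1 of 31 was called higher (Mttp, 3.23%, median 0.545). In antimicrobial genes 1 of 24 was called higher (Duox2) and 1 lower (Lyz2), 8.33% in either direction (median 0.401). Of all genes tested 1.04% were called in either direction. The medians of immune cells (0.552) and stroma moved to −1.84 and −1.09 without ileum WT 1, and that of mitochondrial-encoded mRNA to 0.133 without ileum GFP 1 and 0.0828 without ileum WT 2.

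**Figure D5:**
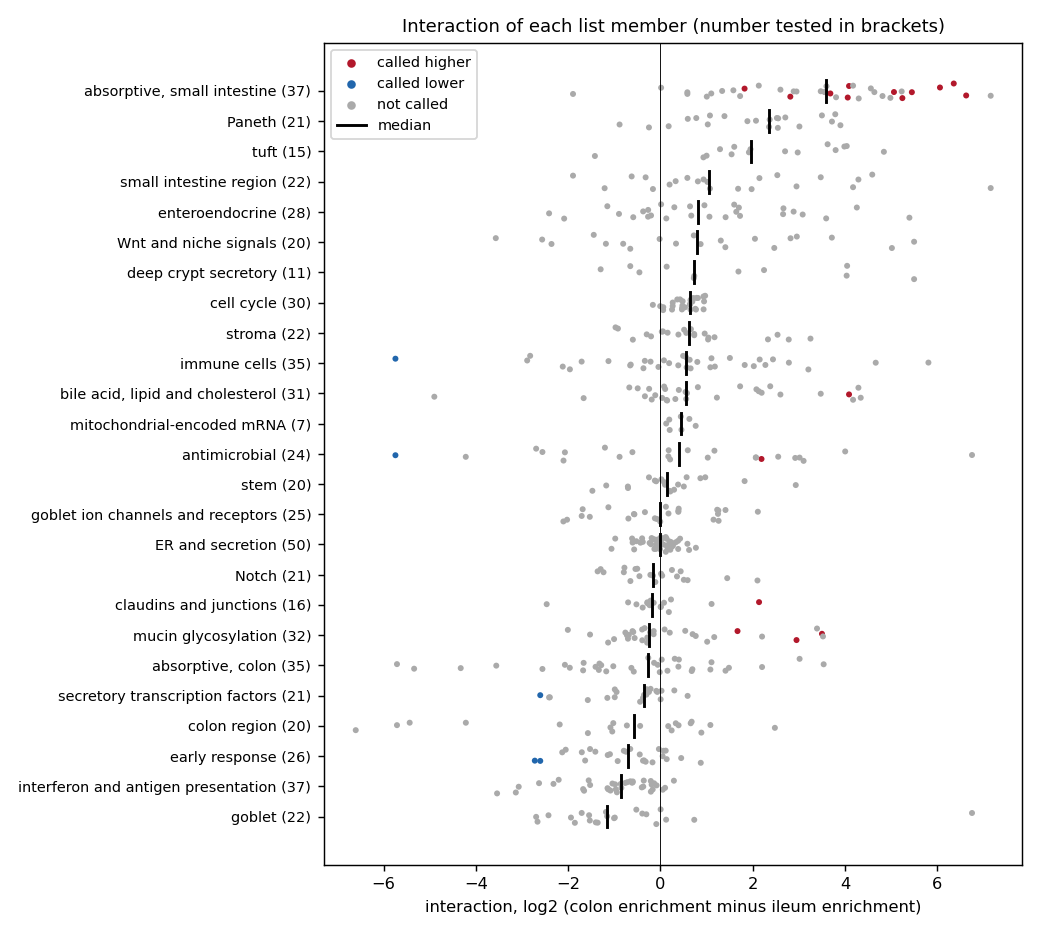
Interaction on the log2 scale for each tested member of 25 gene lists, sorted by the list's median (black bar), with members called higher in red, called lower in blue and not called in grey. The small intestinal absorptive list has the highest median at 3.6 with 12 called members, and the goblet list the lowest at −1.17 with 0.

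The interaction can also be read as the tissue difference of sorted cells minus that of WT crypts. Colon over ileum, 1573 genes were higher (10.5%) and 1036 lower (6.92%) among sorted cells, 17.4% in either direction, and 795 (5.31%) and 563 (3.76%) among WT crypts, 9.07% in either direction. Of the 108 genes with a positive interaction, 40 were called lower in colon among crypts only, 39 were called higher in colon among sorted cells only, 16 were lower in colon in both, 9 were higher among sorted cells and lower among crypts, and 4 were higher in both. Of the 47 with a negative interaction, 16 were called lower in colon among sorted cells only, 12 were called higher in colon among crypts only, 12 were lower among sorted cells and higher among crypts, 6 were higher in both and 1 was lower in both.

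Crypts of Atoh1 f/f; VilCreERT2 mice, in which both Atoh1 alleles are floxed (KO, 2 libraries per tissue, 6 to 8 weeks), took no part in the interaction. Atoh1 stood at 5.22 and 5.92 CPM in colon KO and at 1.02 and 0.528 CPM in ileum KO. Between KO crypts, 9.52% of the genes tested were called higher and 6.31% lower in colon than in ileum, 15.8% in all. Of the 108 genes, 70 were lower in colon KO than in ileum KO and 7 higher, and 99 had the same sign as in WT crypts. Of the 47 genes, 34 were higher in colon KO and 0 lower by edgeR, and 47 had the same sign as in WT crypts. The tissue difference of WT crypts is part of the interaction that picked these genes. The share of all genes tested with the same sign was not computed, so the sign counts only describe the called genes. Slc6a19 stood at 1.09 and 0.986 CPM in colon KO and at 727 and 784 CPM in ileum KO, and Anpep at 4.50 and 5.21 CPM and at 6023 and 5528 CPM. KO values are on the scale of all 14 libraries.

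Among the genes highest in sorted colonic cells, B3gnt6 was at 3.77 and 9.09 CPM in colon KO and at 2.04 and 3.09 CPM in ileum KO, and Gnai1 at 4.64 and 6.69 CPM and at 0.313 and 0.151 CPM. Tenm4 differed between the colon KO libraries, at 1.02 and 11.4 CPM, and was at 0.705 and 0.830 CPM in ileum KO. Myof stood at 78.6 and 75.7 CPM in colon KO and at 5.01 and 3.62 CPM in ileum KO, a log2 difference of 4.16 (edgeR adjusted p = 3.2e-06), against 1.27 between WT crypts.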

How the data were processed

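RNA was sequenced from mouse crypts and sorted crypt cells. TopHat 1.4.1, HTSeq and the build mm9 are named in the submitters' processing notes, while a version of HTSeq, an annotation and its strandedness are not stated there. The deposited tables hold raw counts of 36536 Ensembl genes, 1 table per library. Symbols for 31004 of them came from a gene name reference matched by Ensembl ID. Gene types and chromosomes came from GENCODE M21, which is on another build, so only RefSeq promoter windows carry coordinates. With the strand unknown, overlapping and antisense genes may share reads.

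The 10 libraries were fitted as 4 groups in edgeR 4.0.16 under R 4.3.3 (quasi-likelihood F-test, robust, TMM scaling, genes kept by filterByExpr; biological coefficient of variation 0.26, 6 residual degrees of freedom). Benjamini-Hochberg adjustment ran over all genes tested, with calls at an adjusted p under 0.05. SE is the absolute log2 value divided by the square root of its F statistic, and not a standard error that the model fitted. The procedure was also run on simulated data, and the outcome is not reported here. Reads outside genes stayed out of library sizes. Replicates were not copies of each other (chi-square per gene of 14.77 to 92.92). Alternatives were DESeq2 size factors, no mitochondrial genes, no filter, the DESeq2 1.42.0 Wald test, all 14 libraries, 2 blocks, limma-voom (limma 3.58.1) and each library left out.

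The libraries, the 25 gene lists (703 entries, 692 matched, 2 by an older symbol) and the lead genes were chosen with earlier results of these data known. Named genes were Atoh1, called genes with a mean of at least 10 CPM in 1 group and the largest interactions (among all and per pattern of calls), up to 5 called and 3 uncalled members per list, and secretory transcription factors and Notch genes. Dpp4, Ptprc and any other gene outside this rule were chosen after their values were seen. Some genes that the rule admits are not reported here.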

Additional observations from a re-analysis of the deposited data

Results flagged for a closer look

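The difference between colon and ileum was itself tested, and 108 genes were called higher and 47 lower in it by edgeR. The log2 interactions of the called genes named above are grouped here by the group with the highest mean, and then by their ratios. Genes highest in ileum WT stood at 6.63 (Anpep), 6.36 (Slc6a19), 6.06 (Treh), 5.45 (Cubn), 5.06 (Mme), 5.02 (Slc26a6), 4.09 (Mttp), 3.58 (Dpp4), 2.78 (Tgfbi), 2.19 (Duox2) and 1.67 (St3gal4). Mgat4c, highest in colon WT, stood at 3.35. Genes highest in colon GFP stood at 5.55 (Gnai1), 4.83 (Plek), 4.82 (Tenm4), 3.5 (Fut2), 2.95 (B3gnt6) and 2.14 (Cldn2).

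Genes higher than crypts in sorted ileal cells and lower in sorted colonic cells stood at −3.96 (Mfsd7a), −3.53 (Myof), −2.61 (Klf4) and −2.4 (Slc17a4). Genes higher in sorted cells of both tissues stood at −2.72 (Fosb), −2.24 (Prelp), −2.18 (Srgap1) and −1.74 (Slc25a35). Lyz2 stood at −5.74 and Trim40 at −3.56.

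Reads outside genes, which no comparison used, made up 24.87, 31.92 and 30.01% of uniquely placed reads in colon GFP 1 to 3 and 52.29, 27.78 and 31.25% in ileum GFP 1 to 3, against 9.3 to 11.7% in WT crypts. Groups of 2 or 3 libraries are too small to test a single library as an outlier.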

How the results depend on the processing

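Over 18 alternatives all 155 genes kept their direction. Counts higher and lower were 516 and 325 without the filter, 258 and 200 with DESeq2, 203 and 139 with all 14 libraries, and 343 and 392 with file-name numbers as a block (WT crypts, 1481 higher and 1233 lower), against 108 and 47. The share called higher was 56.3% with DESeq2, 59.4% with 14 libraries and 46.7% with file-name numbers, against 69.7%. The median over all genes was 0.25 without the filter and 0.225 with DESeq2, against 0.052. Opposite-direction genes numbered 46 and 28 without the filter, 38 and 19 with 14 libraries, and 18 (lower in colon GFP, higher in ileum GFP) with DESeq2. Calls among small intestinal absorptive genes numbered 29 without the filter. With file-name numbers as a block, colon GFP 3 and ileum GFP 1 took no part in the comparison. The cause of these shifts was not tested.

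Leaving out 1 library gave 31 to 163 higher and 20 to 130 lower calls, 4 to 35 and 2 to 25 opposite-direction genes, and 9 to 12 small intestinal absorptive genes. It gave 1250 to 3300 higher and 1721 to 3491 lower in colon GFP over WT, 2279 to 3513 and 2698 to 3938 in ileum GFP over WT, 1018 to 1603 and 501 to 1141 in GFP colon over ileum, and 375 to 1006 and 205 to 761 in WT colon over ileum. Where an arm kept 1 library, it was assumed to vary like the other groups. Of uncalled genes some changed sign: Muc2 ran from −0.947 to 0.52, Spdef −0.748 to 0.363, Lyz1 −1.12 to 3.749, Defa24 −1.17 to 7.237, Itln1 −0.969 to 2.831, Reg4 −1.827 to 5.38, Mptx1 −0.443 to 3.165, and Dclk1 −0.283 to 3.897.

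Deviations of libraries with the same replicate number correlated at 0.00735, −0.0988 and 0.0789 between the GFP groups. Groups this small cannot settle whether those numbers pair the GFP libraries. Same-numbered WT libraries, which also share a number in their file names, correlated at 0.271. With 2 libraries per group the deviations mirror each other, so both pairs give this 1 value. GFP libraries that share a file-name number correlated at 0.0905 (colon GFP 1 with ileum GFP 2) and 0.0298 (colon GFP 2 with ileum GFP 3). Whether that number marks an animal or a day is not stated. With the replicate block 88 genes were called higher and 46 lower, and the opposite-direction genes lower in colon GFP numbered 4 against 9. Low-count genes such as Treh, with 4 counts in colon WT, are measured with little precision at this depth.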
